A study of Mus musculus with 12 samples.

Results

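The 35 genes described here encode the enzymes that break glucose down to pyruvate and lactate and that burn pyruvate in mitochondria. They comprise 14 genes of glycolysis, 4 of the pyruvate dehydrogenase complex, 14 of the tricarboxylic acid cycle with the cytosolic isoforms of its dehydrogenases, and 3 side enzymes, the malic enzyme Me1 and the glycerol phosphate dehydrogenases Gpd1 and Gpd2. They were picked by gene symbol, and no measured value entered that rule. All 35 were measured, among 11614 genes in each library.

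RNA sequencing of the kidney cortex of C57BL/6J mice gave 12 libraries, with 4 groups of 3. Non-alcoholic steatohepatitis (NASH), in which the liver is fatty and inflamed, was produced by a Western diet with CCl4, a liver toxin, for 12 or 24 weeks, and control mice had a normal diet with corn oil for the same times. The labels count 6 mice for NASH and 6 for control at 12 weeks, 10 for NASH and 8 for control at 24 weeks, males and females in equal number, and they name no transgene or engineered allele. NASH mice thus differed from control mice in diet, toxin and liver disease at once, and these cannot be told apart. The sex behind a library and the hour of dissection are not given in the sources used here, and nothing says that libraries came from separate animals or pools, so each p measures the spread between these samples. Depth, estimated from the steps of the deposited values, ran from 7.18 to 14.1 M reads, and replicates 2 and 3 of NASH at 12 weeks, at 7.18 and 8.23 M, were among the 3 shallowest.

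In glycolysis, hexokinase and phosphofructokinase spend ATP to prime glucose, and the enzymes from glyceraldehyde phosphate dehydrogenase to pyruvate kinase recover it. Lactate dehydrogenase exchanges pyruvate with lactate, while the pyruvate dehydrogenase complex commits pyruvate to acetyl-CoA, which citrate synthase feeds into the cycle. In kidney, the proximal tubule lives mainly on oxidation and makes glucose from lactate, and the distal segments and the collecting duct depend more on glycolysis. All 14 markers of proximal tubule in the list used here were measured, and their values summed to between 286 and 396 k scaled reads a library, against 40.2 to 170 k for 14 markers of the loop and distal tubule.

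The enzymes ranged widely in level. Per kilobase of transcript and averaged over 12 libraries, Gapdh, glyceraldehyde phosphate dehydrogenase, led with 22321 scaled reads, followed by Ldhb, the heart-type lactate dehydrogenase subunit, with 18570 and the cytosolic malate dehydrogenase Mdh1 with 11884. The aldolase Aldoa had 9460 scaled reads per kilobase, triose phosphate isomerase Tpi1 7883 and Ldha, the muscle-type lactate dehydrogenase subunit, 6662. At the low end stood entry and control steps of glycolysis, namely the hexokinase Hk1 with 338 and the phosphofructokinase subunits Pfkm, Pfkl and Pfkp with 343, 211 and 135 scaled reads per kilobase. The side enzyme Gpd2 lay among them, with 212. Between these extremes lay most of the cycle, where the mitochondrial malate dehydrogenase Mdh2 had 5818, citrate synthase Cs 1703 and the catalytic isocitrate dehydrogenase subunit Idh3a 1236. In the pyruvate dehydrogenase complex the levels per kilobase ran from 553 for Dlat to 2954 for Pdha1. Of the 35 genes, 34 lay above the median of all genes, 140 scaled reads per kilobase. Processed pseudogene copies of Gapdh, Eno1, Pgk1 and Ldha occur in the mouse genome, and how shared reads were counted is not given in the sources used here, so the levels of these genes are uncertain.

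**Figure D1:**
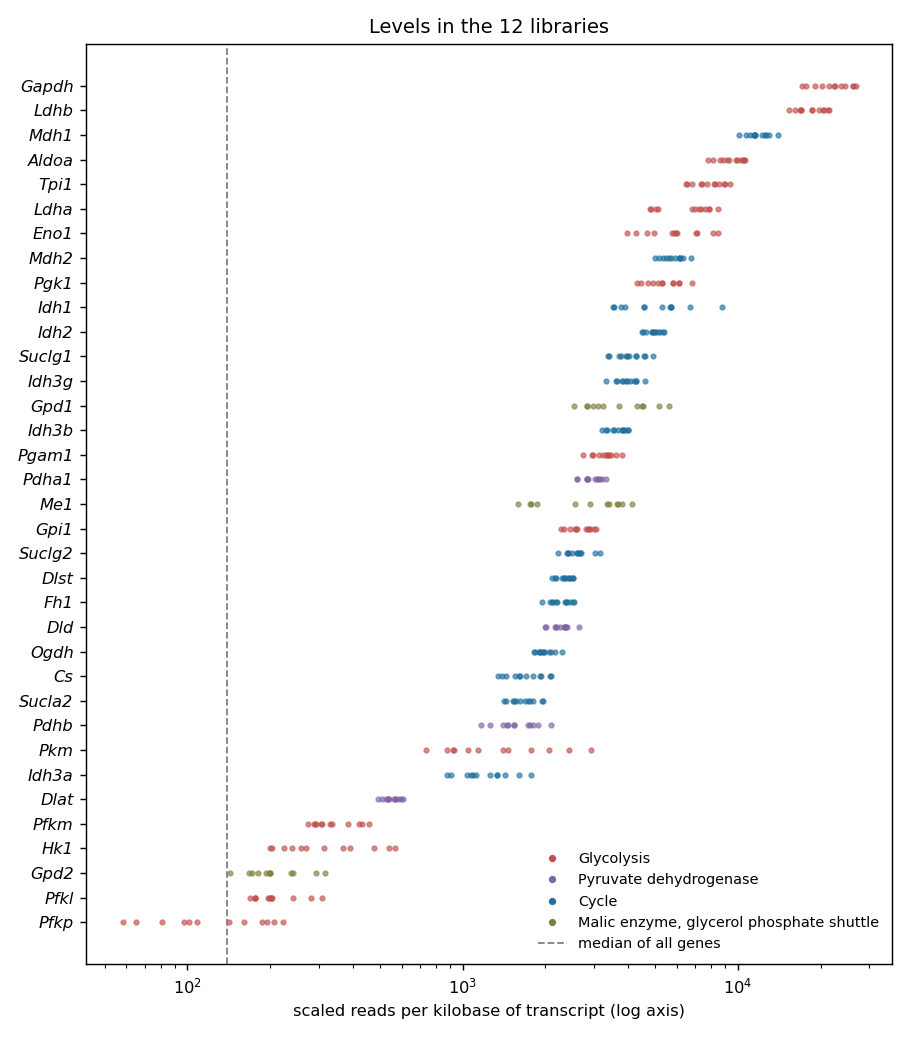
Levels of the 35 enzymes in scaled reads per kilobase of transcript (log axis), 1 point for each of the 12 libraries, coloured by role and ordered by mean; the dashed line is the median of all 11614 genes, 140. Gapdh lies between 17090 and 26853 and Pfkp between 58.3 and 223.

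At 12 weeks most of the enzymes lay slightly higher in NASH, and few passed a test. The log2 difference was above 0 for 27 of 35, with a median of 0.11, whereas 40.4% of all genes lay above 0, with a median of -0.08. Glycolysis had 10 of 14 above 0 (median 0.14), pyruvate dehydrogenase 3 of 4 (0.081), the cycle 11 of 14 (0.057) and the side enzymes 3 of 3 (0.18). The counts move with the scaling: 32 of 35 lay above 0 under median-of-ratios scaling (median 0.20), which moved the median of all genes to 0.0074, and 21 of 35 under quantile normalization (median 0.072), where the cycle turned to 6 of 14 with a median of -0.034. With GC content and length trends removed in the blocked fit 22 of 35 lay above 0 (median 0.071), and glycolysis had 7 of 14 above 0 (median -0.0027).

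No enzyme passed limma's test at 12 weeks without a block (4 had an unadjusted p under 0.05, Eno1, Idh3g, Fh1 and Gpd2, all higher), where 0.0517% of all genes were called and 14.5% had such a p. The replicate numbers 1 to 3 occur in every group, and same-numbered libraries deviated together, so the number was also fitted as a block, a term that removes what such libraries share. Then 2 of 35 enzymes passed, where 12.9% of all genes did: Gpd2 rose and Idh1 fell, beside 3.01% and 9.85% of all genes. With the block 9 enzymes had an unadjusted p under 0.05, where 30.8% of all genes did. In all, 9 enzymes had every NASH library above every control library (Gpi1, Gapdh, Eno1, Idh3b, Idh3g, Suclg1, Fh1, Mdh2 and Gpd2) and 0 had every one below. Of all genes 22.5% parted the groups in this way, 8.14% upward and 14.4% downward. In bulk tissue, a change in the amount of RNA per cell and a change in the share of a cell type cannot be told apart.

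**Figure D2:**
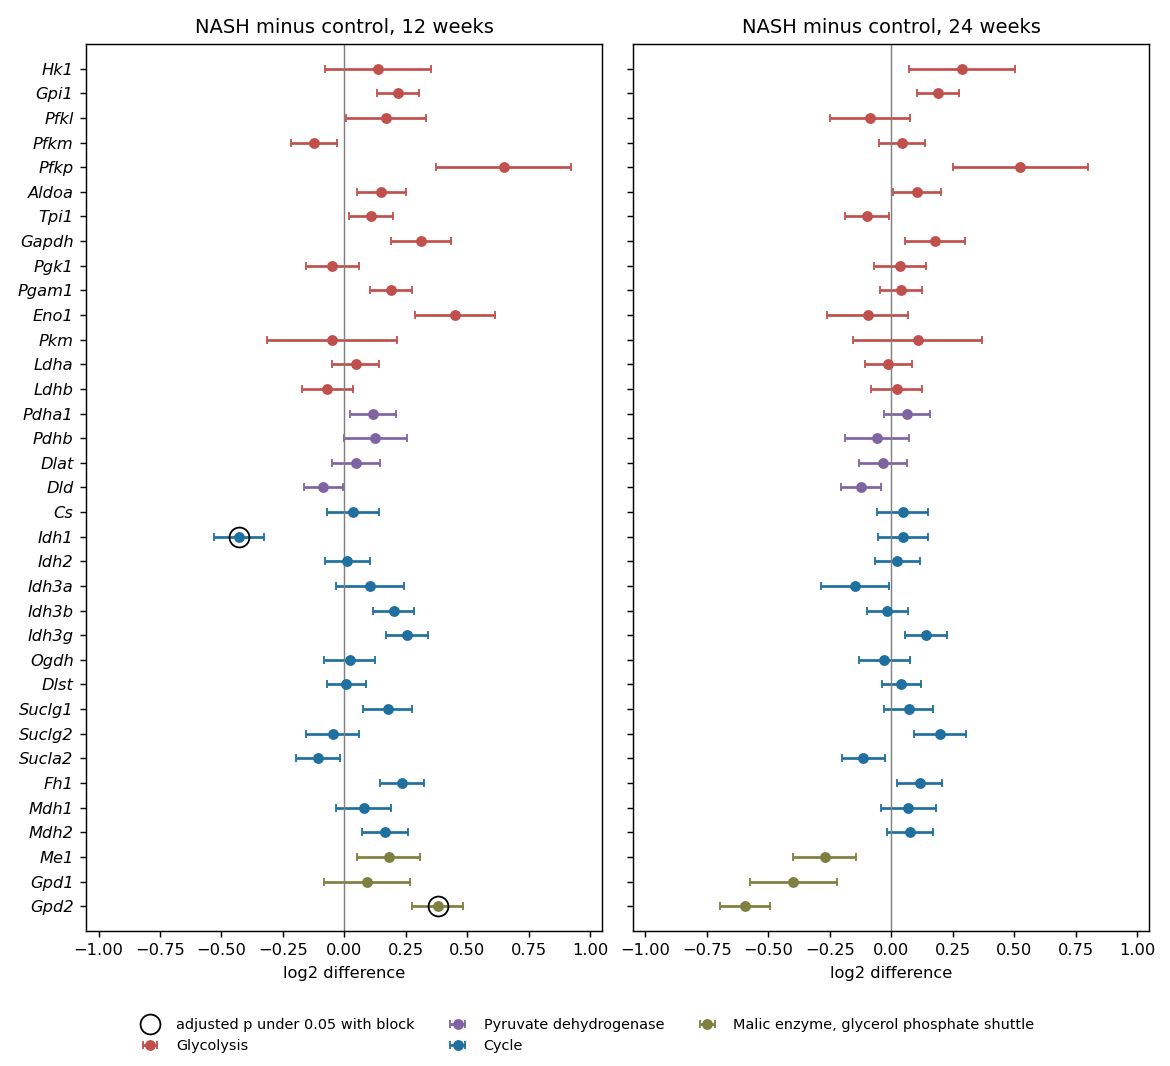
Log2 difference of NASH minus control at 12 weeks (left) and 24 weeks (right) for the 35 enzymes, with the SE of the fit with the replicate block; colours give the role and open circles an adjusted p under 0.05 in that fit. At 12 weeks 27 of 35 points lie right of 0 and Gpd2 and Idh1 are circled; at 24 weeks no gene is circled and Gpd2 lies farthest left, at -0.60.

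Gpd2, the mitochondrial glycerol 3-phosphate dehydrogenase that passes electrons from cytosolic glycerol phosphate to the respiratory chain, had log2 values of 10.16, 10.17 and 10.42 in NASH at 12 weeks, against 9.68, 9.91 and 10.02 in control. The groups did not overlap, and NASH was 1.30-fold higher (log2 0.38, block SE 0.10, adjusted p = 0.0381; 0.287 without the block). The call was lost when any of the 6 libraries of 12 weeks was left out, or replicate 3 of control at 24 weeks (adjusted p from 0.0546 to 0.117). Within replicates 2 and 3 the difference was 0.33 with an adjusted p of 0.158, and with GC and length trends removed in the blocked fit it was 0.63 (0.0211). In the files' build, mm10, Gpd2 (gene ID 14571) lies on the forward strand of chromosome 2 from 57237678 to 57370719.

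Idh1, the cytosolic isocitrate dehydrogenase that makes NADPH, had log2 values of 13.89, 13.33 and 12.98 in NASH at 12 weeks, against 14.28, 13.66 and 13.55 in control. The groups overlapped, but each NASH library lay below the control library of its number, and NASH was 1.35-fold lower (log2 -0.43, block SE 0.10, adjusted p = 0.0257; 0.494 without the block). This call was lost with the block under median-of-ratios scaling (-0.34, adjusted p = 0.0856), after removal of GC and length trends (-0.39, 0.0676) and without any of the 6 libraries of 12 weeks (0.0572 to 0.101). Its mitochondrial counterpart Idh2 had a mean of 13.04 ± 0.13 in NASH and 13.03 ± 0.12 in control (SD, n = 3 each). With GC and length trends removed in the blocked fit the difference of Idh2 was -0.18. Idh1 (gene ID 15926) lies on the reverse strand of chromosome 1 from 65158616 to 65179142 in mm10.

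The promoters of the 2 genes that passed with the block are shown from RefSeq (GRCm38.p6), 250 bases before to 50 after the start, as letters to set beside those of other enzymes further on. Capitals would mark ACGTG or its reverse complement CACGT, a form of the core letters bound by hypoxia-inducible factors. Neither window holds ACGTG or CACGT, and other forms of that core were not searched. The Gpd2 window is chr2:57237428-57237727 on the forward strand and the Idh1 window chr1:65179093-65179392 on the reverse strand.
Gpd2: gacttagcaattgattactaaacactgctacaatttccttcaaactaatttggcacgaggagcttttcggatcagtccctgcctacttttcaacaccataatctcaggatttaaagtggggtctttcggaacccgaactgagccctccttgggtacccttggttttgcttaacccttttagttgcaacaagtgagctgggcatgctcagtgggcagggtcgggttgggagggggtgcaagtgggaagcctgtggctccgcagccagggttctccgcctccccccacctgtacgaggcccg
Idh1: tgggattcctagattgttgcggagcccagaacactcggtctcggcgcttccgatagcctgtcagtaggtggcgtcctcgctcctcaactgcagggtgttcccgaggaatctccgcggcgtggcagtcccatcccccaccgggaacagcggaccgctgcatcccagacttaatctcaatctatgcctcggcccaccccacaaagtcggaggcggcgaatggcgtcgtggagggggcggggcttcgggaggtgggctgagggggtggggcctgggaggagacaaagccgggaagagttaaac

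Among the other glycolytic genes at 12 weeks, Eno1, the enolase, had log2 values of 13.62, 13.32 and 13.10 in NASH against 13.02, 12.89 and 12.77 in control, a difference of 0.45 that did not pass (SE 0.19, adjusted p = 0.319; 0.0931 with the block). Gapdh had 14.97, 15.19 and 14.89 in NASH against 14.57, 14.81 and 14.73 in control, a difference of 0.31 (SE 0.17, adjusted p = 0.410; 0.109 with the block). Gpi1, glucose phosphate isomerase, had 13.02, 13.00 and 12.88 in NASH against 12.68, 12.85 and 12.72 in control, a difference of 0.22 (SE 0.10, adjusted p = 0.362; 0.113 with the block). In all 3 genes the lowest NASH library lay above the highest control library, by less than the range within either group. With GC content and length trends removed in the blocked fit the difference was 0.21 for Eno1, 0.04 for Gapdh and 0.21 for Gpi1. The largest difference in glycolysis belonged to Pfkp, the platelet-type phosphofructokinase subunit, whose values overlapped at 9.56, 9.16 and 9.70 in NASH and 9.34, 8.78 and 8.35 in control (0.65, SE 0.46, adjusted p = 0.529; 0.138 with the block). Within replicates 2 and 3 alone Pfkp passed (0.86, SE 0.20, adjusted p = 0.0492), where 3.31% of all genes did. The remaining differences ran from -0.12 for Pfkm to 0.19 for the mutase Pgam1, with lactate dehydrogenase near 0 (Ldha 0.05, Ldhb -0.07). For Ldhb this depended on the fit: with GC content and length trends removed in the blocked fit it had -0.26, and Ldha -0.06.

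No subunit of the pyruvate dehydrogenase complex passed at 12 weeks. Pdha1, the catalytic E1 alpha subunit, had log2 values of 13.11, 12.99 and 13.13 in NASH against 13.17, 12.86 and 12.86 in control (difference 0.12, SE 0.12). Its partner Pdhb had 11.44, 11.16 and 11.35 in NASH against 11.33, 11.16 and 11.09 in control (0.13, SE 0.20). Dlat, the acetyltransferase core, had 11.08, 11.15 and 11.25 in NASH against 11.16, 11.01 and 11.18 in control (0.05, SE 0.11). Dld, the lipoamide dehydrogenase that the oxoglutarate complex shares, had 12.37, 12.33 and 12.39 in NASH against 12.56, 12.39 and 12.40 in control (-0.09, SE 0.10). The groups overlapped in all 4 genes. With GC content and length trends removed the differences were 0.20 for Pdha1, 0.04 for Pdhb, 0.21 for Dlat and -0.03 for Dld. With the block alone no adjusted p in the complex was below 0.432. With the trends also removed the smallest was 0.148, for Pdha1.

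In the cycle, the regulatory isocitrate dehydrogenase subunit Idh3g had log2 values of 12.36, 12.58 and 12.48 in NASH at 12 weeks against 12.11, 12.30 and 12.24 in control (0.25, SE 0.10, adjusted p = 0.311; 0.0724 with the block). Fumarase, Fh1, had 11.92, 11.96 and 12.02 in NASH against 11.81, 11.76 and 11.63 in control (0.23, SE 0.10, adjusted p = 0.340; 0.109 with the block). The other regulatory subunit, Idh3b, had 12.56, 12.49 and 12.51 in NASH against 12.39, 12.32 and 12.26 in control (0.20, SE 0.11, adjusted p = 0.399; 0.134 with the block). All 3 genes had every NASH library above every control library, as did Suclg1, the shared subunit of succinyl-CoA ligase, and Mdh2, with differences of 0.18 and 0.17. With GC content and length trends removed in the blocked fit these differences were smaller, at 0.09 for Idh3g, 0.17 for Fh1, 0.07 for Idh3b and 0.05 for Suclg1, and Mdh2 turned to -0.10. The catalytic subunit Idh3a, at 0.10, overlapped between groups. Citrate synthase, with log2 means of 12.37 ± 0.09 in NASH and 12.33 ± 0.22 in control, and the oxoglutarate dehydrogenase subunits Ogdh (0.02) and Dlst (0.01) differed by less than their spread (SD, n = 3 each). With the same trends removed in the blocked fit Ogdh moved to 0.23, while Cs had 0.09 and Dlst 0.04. Suclg2 (-0.05) and Sucla2 (-0.11), the GTP-forming and ATP-forming succinyl-CoA ligase subunits, lay on the lower side with Idh1.

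At 24 weeks no enzyme passed, with the block or without it (limma called 0.0% of all genes without it and 0.00861% with it). The log2 difference was above 0 for 21 of 35, with a median of 0.04, and for 52.1% of all genes, with a median of 0.01. Without the block 1 enzyme, Gpd2, had an unadjusted p under 0.05, where 2.99% of all genes did, and with it Gpi1, Gpd1 and Gpd2, where 9.68% did. Every NASH library lay above every control library in Gpi1 and Idh3g and below in Gpd1 and Gpd2, against 4.56% of all genes above and 2.65% below (7.22% in all).

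Gpd2 had log2 values of 10.11, 9.94 and 10.15 in NASH at 24 weeks, against 10.44, 10.72 and 10.83 in control, the opposite order to 12 weeks. The difference was -0.60 (SE 0.14, adjusted p = 0.999; block SE 0.10, adjusted p = 0.190). Gpd1, the cytosolic glycerol phosphate dehydrogenase that hands Gpd2 its substrate, had 13.01, 13.61 and 13.55 in NASH against 13.62, 13.81 and 13.93 in control (-0.40, SE 0.18, adjusted p = 0.999; 0.508 with the block). The third side enzyme, Me1, which yields NADPH from malate, had 12.60, 13.06 and 13.24 in NASH against 12.53, 13.57 and 13.63 in control (-0.27, SE 0.41). Adipocyte markers, Pck1 left out because the proximal tubule makes it, also lay lower in these NASH libraries: the other 9 summed to 0.761 to 2.32 k scaled reads in NASH and 2.51 to 31.0 k in control, with none at 0. Of the whole list of 10, 9 lay lower in NASH, and limma called 0 of them (7 had an unadjusted p under 0.05). Macrophage markers parted the groups in the other direction: all 10 lay higher in NASH, their sums were 8.04 to 11.9 k in NASH and 3.35 to 7.67 k in control, and limma called 0 of them (1 had an unadjusted p under 0.05). At 12 weeks the adipocyte sums without Pck1 overlapped, at 1.38 to 3.85 k in NASH and 1.70 to 2.69 k in control. The part of fat tissue or macrophages in these differences was not tested.

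Glycolysis at 24 weeks had 10 of 14 above 0, with a median of 0.04. Gpi1 had log2 values of 13.08, 13.10 and 13.03 in NASH against 12.80, 12.99 and 12.86 in control (0.19, SE 0.10, adjusted p = 0.999; 0.510 with the block), close to its difference at 12 weeks. Pfkp had 9.81, 8.68 and 8.61 in NASH against 9.61, 7.88 and 8.03 in control (0.53, SE 0.46), and Gapdh 15.09, 15.19 and 15.05 against 14.61, 15.22 and 14.95 (0.18, SE 0.17). Each NASH library of Gpi1 and Pfkp lay above the control library of its number, while Gapdh did so in replicates 1 and 3. Eno1, at 13.82, 13.38 and 13.37 in NASH and 13.34, 13.88 and 13.63 in control, had a difference of -0.10 (SE 0.19). With GC content and length trends removed in the blocked fit Gapdh had 0.07 and Eno1 -0.18.

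Of the cycle genes at 24 weeks, 10 of 14 lay above 0, with a median of 0.05. Idh3g had log2 values of 12.40, 12.45 and 12.47 in NASH against 12.32, 12.36 and 12.23 in control (0.14, SE 0.10). Suclg2 had 13.11, 13.49 and 13.43 in NASH against 12.99, 13.21 and 13.24 in control (0.20, SE 0.13), and Fh1 12.00, 11.94 and 11.80 against 11.75, 11.91 and 11.73 (0.12, SE 0.10). Only in Idh3g among these 3 did the groups not overlap, and with GC content and length trends removed its difference was 0.08. Idh1, with 13.66, 13.33 and 12.97 in NASH and 13.65, 13.10 and 13.06 in control, had a difference of 0.05 (SE 0.28). In the pyruvate dehydrogenase complex Dld had 12.29, 12.14 and 12.16 in NASH against 12.42, 12.26 and 12.28 in control (-0.12, SE 0.10), each NASH library below the control library of its number.

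Pdha1 at 24 weeks had log2 values of 13.21, 13.08 and 12.98 in NASH against 13.11, 12.98 and 12.98 in control (0.07, SE 0.12). Dlat had 11.21, 11.09 and 10.96 in NASH against 11.23, 11.06 and 11.08 in control (-0.03, SE 0.11), and the difference of Pdhb was -0.06 (SE 0.20). All of these overlapped between the groups.

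**Figure D3:**
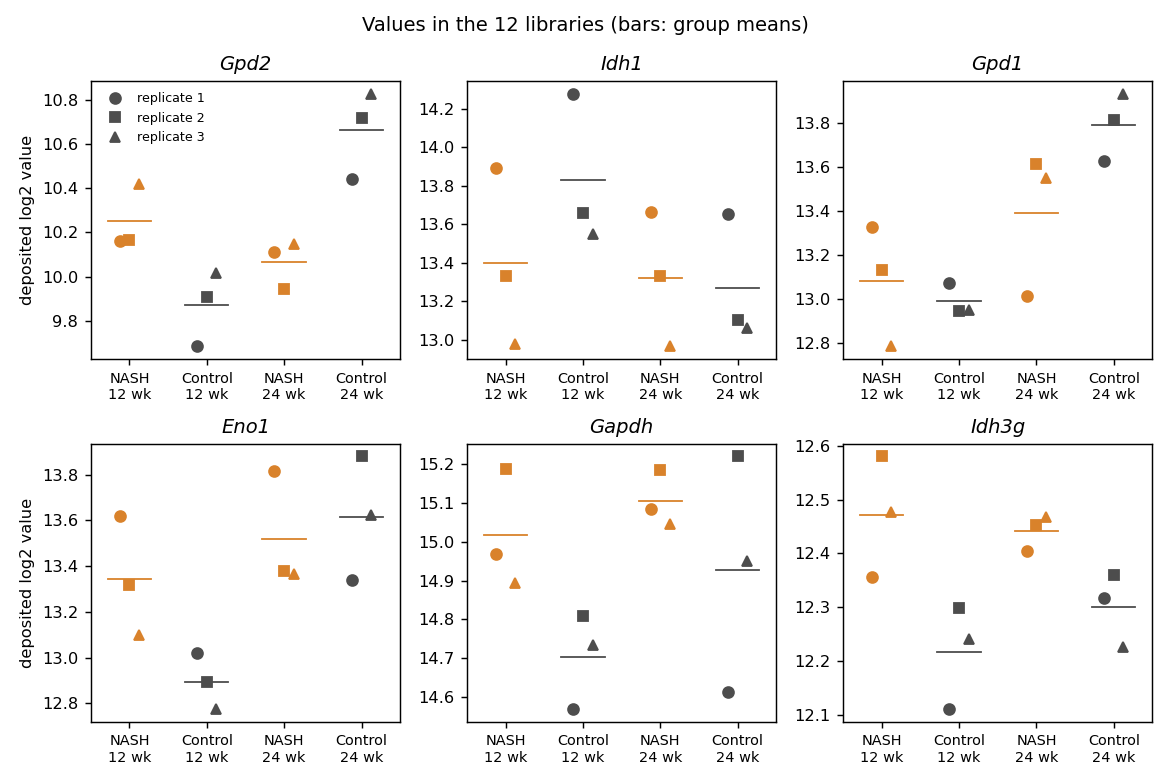
Deposited log2 values of 6 enzymes in the 12 libraries, with NASH (orange) left of control (grey) at each time, symbols for the replicate number and bars for group means. Gpd2 lies higher in NASH at 12 weeks (10.16 to 10.42 against 9.68 to 10.02) and lower at 24 weeks (9.94 to 10.15 against 10.44 to 10.83), and Idh3g lies higher in NASH at both.

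The NASH effects at the 2 times were compared directly by an interaction, the effect at 24 minus that at 12 weeks. For Gpd2 it was -0.98 (SE 0.20, adjusted p = 0.698; block SE 0.15, adjusted p = 0.0739), which did not pass. It passed within replicates 2 and 3 alone (-1.06, adjusted p = 0.0391, where 0.629% of all genes did), with the block under quantile normalization (-1.03, 0.0490), and with the block without replicate 1 of control (0.0306) or of NASH (0.0335) at 24 weeks. Groups that did not overlap at either time, in opposite directions, occurred in 33 genes (0.284% of all). Gpd2 was singled out for this pattern, so the share is no separate support for it. No other enzyme reached an adjusted p below 0.247 with the block, the next being Idh1 (0.48, block SE 0.14), and Eno1 had -0.55 (block SE 0.23, adjusted p = 0.367). Limma called 0.0% of all genes without the block and 0.00861% with it, and an unadjusted p under 0.05 was reached by 1 enzyme without the block (3.66% of all genes) and by 4 with it (12.8%).

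Averaged over both times, no enzyme passed without the block (3 had an unadjusted p under 0.05, Gpi1, Idh3g and Fh1, where 13.6% of all genes did) or with it, where 10.4% of all genes were called. The smallest adjusted p with the block belonged to Gpi1 (0.20, block SE 0.06, adjusted p = 0.0557) and Idh3g (0.20, block SE 0.06, 0.0607). With the block 6 enzymes had an unadjusted p under 0.05, where 28.8% of all genes did. Within replicates 2 and 3 Pfkp passed (0.78, adjusted p = 0.0384), where 1.06% of all genes did.

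In control kidneys the 2 times differed most in the glycerol phosphate enzymes. Gpd2 averaged 10.66 ± 0.20 on the log2 scale at 24 weeks and 9.87 ± 0.17 at 12 weeks (SD, n = 3 each), the groups did not overlap, and it was 1.73-fold higher at 24 weeks (0.79, block SE 0.10, adjusted p = 0.0321; 0.323 without the block). It was the single enzyme of 35 called with the block, where 0.172% of all genes were, 0.0344% as higher; without it limma called 0 enzymes and 0.0% of all genes, and 3 enzymes (Gpd2, Gpd1 and Eno1) had an unadjusted p under 0.05, where 7.84% of all genes did. With the block 5 enzymes had such a p, where 19.5% of all genes did. The call was lost without any of replicates 2 and 3 of either control group, without replicates 2 or 3 of NASH at 24 weeks and without replicate 3 of NASH at 12 weeks (adjusted p from 0.0521 to 0.227). Gpd1 averaged 13.79 ± 0.16 at 24 weeks and 12.99 ± 0.07 at 12 weeks (0.80, block SE 0.18, adjusted p = 0.0786), and Eno1 13.62 ± 0.27 and 12.90 ± 0.12 (0.72, block SE 0.16, 0.0848); neither group pair overlapped. In all, 3 enzymes had every library of 24 weeks above every library of 12 weeks, these and Gpd2, and 1, Dlst, had them below, against 4.72% and 7.38% of all genes (12.1% in all). Within replicates 2 and 3 alone Eno1 (0.92), Gpd1 (0.92) and Gpd2 (0.81) passed, with adjusted p of 0.00374, 0.00398 and 0.00751, where 6.5% of all genes did. The adipocyte marker sums given above, without Pck1, were 2.51 to 31.0 k scaled reads at 24 weeks and 1.70 to 2.69 k at 12 weeks in control. The 31.0 k came from replicate 1 alone, which had the lowest Gpd2, Gpd1 and Eno1 of control at 24 weeks. The part of fat tissue in these differences was not tested. Idh1 averaged 13.27 ± 0.33 at 24 weeks and 13.83 ± 0.39 at 12 weeks (-0.56, block SE 0.10, adjusted p = 0.0604).

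In NASH kidneys no enzyme passed between 24 and 12 weeks (limma called 0.0% of all genes without the block and 0.0258% with it, and an unadjusted p under 0.05 was reached by 0 enzymes without it, against 4.76% of all genes, and by Tpi1, Idh3a and Me1 with it, against 11.5%). Gpd2 averaged 10.07 ± 0.11 at 24 weeks and 10.25 ± 0.15 at 12 weeks (-0.18, SE 0.14), and Gpd1 13.39 ± 0.33 and 13.08 ± 0.28 (0.31, SE 0.18). Every library of 24 weeks lay above every library of 12 weeks in Gpi1 and Aldoa and below in Dld, Dlst and Gpd2, against 4.06% of all genes above and 4.37% below (8.44% in all). Within replicates 2 and 3 Gpd1 (0.62, adjusted p = 0.0249) and Me1 (-0.51, 0.0349) passed, where 4.66% of all genes did. The comparisons in this and the preceding paragraphs share libraries and are therefore not independent of each other.

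Of 89 measured genes in 7 lists next to these enzymes in the pathway, 13 passed with the block at 12 weeks (14.6%, near the 12.9% of all genes), 5 higher and 8 lower, and 2 passed without it, Slc16a1 and Ndrg1. Slc16a1, a carrier of lactate and pyruvate across the plasma membrane, had log2 values of 9.13, 8.86 and 8.44 in NASH against 10.79, 10.49 and 10.88 in control, and fell without the block (-1.91, SE 0.20, adjusted p = 0.00984). Of 11 measured transport genes, Slc16a1 fell and the fructose transporter Slc2a5 rose with the block (0.90, block SE 0.25, adjusted p = 0.0397), while the mitochondrial pyruvate carrier did not pass. Of 10 pyruvate dehydrogenase regulators, Pdp2, a catalytic phosphatase that removes the inhibitory phosphate (-1.02, block SE 0.23, adjusted p = 0.0212), and Pdpr, the regulatory subunit of pyruvate dehydrogenase phosphatase (-1.59, block SE 0.25, 0.00859), fell with the block. Pdpr had 7.47, 6.36 and 6.35 in NASH against 9.13, 7.62 and 8.19 in control, and Pdp2 9.24, 8.57 and 8.66 against 10.09, 9.68 and 9.75, with no overlap in either. No kinase of the complex passed.

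Of 10 regulators of glycolysis, 0 rose and 2 fell with the block, Hif1a, the oxygen-sensitive transcription factor (-0.57, block SE 0.13, adjusted p = 0.0236), and Prkaa1, a catalytic subunit of AMP-activated kinase (-0.51, block SE 0.13, 0.0306). Of 13 other measured glycolytic enzymes, among them the hexokinases Hk2 and Hk3, 0 were called with the block, and 2 had an unadjusted p under 0.05. Of 13 other genes of the cycle, Mrps36 (0.40), now known as a subunit of the oxoglutarate dehydrogenase complex, and Sdhaf1 (0.52), an assembly factor of succinate dehydrogenase, rose, and Dhtkd1 (-0.97), a dehydrogenase of oxoadipate, fell, with adjusted p of 0.0425, 0.0265 and 0.0228. Of 20 genes that fill or drain the cycle, the gluconeogenic Pck1 rose (1.88, block SE 0.48, adjusted p = 0.0316) and G6pc fell (-0.80, block SE 0.23, 0.0434). Of 12 genes induced by low oxygen, Egln3 rose (1.21, block SE 0.24, adjusted p = 0.0143) and Ndrg1 fell (-1.43, block SE 0.18, 0.00394); Ndrg1 also passed without the block (0.0339). The list thus held members on both sides, with a median of 0.05.

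At 24 weeks 0 genes of these 7 lists were called by limma against control, with the block (0.00861% of all genes) or without it (0.0%). Without the block 2 transport genes, 1 pyruvate dehydrogenase regulator and 1 gene that fills or drains the cycle, all lower, had an unadjusted p under 0.05. So did 0 genes of the other 4 lists, and 2.99% of all genes. All 10 glycolysis regulators lay below 0, with a median of -0.24 and none called, while all genes split nearly evenly around 0, as given above. Slc16a1 had 10.36, 10.37 and 10.55 in NASH against 10.53, 11.07 and 11.15 in control (-0.50, SE 0.20, adjusted p = 0.999), and the groups overlapped. Between 24 and 12 weeks in NASH, Slc16a1 (1.61, adjusted p = 0.0308) and Ndrg1 (1.42, 0.0308) rose with the block.

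Some markers of cell types were called at 12 weeks, while most of the list sums overlapped between the groups. Among 14 markers of the loop and distal tubule 5 fell with the block, 1 of 12 collecting duct markers rose and 1 fell, 2 of 8 hepatocyte markers rose and Pck1 rose among 10 adipocyte markers, and 0 of 14 proximal tubule markers were called, where 3.01% of all genes rose and 9.85% fell. The sums of the adipocyte list with Pck1 did not overlap, at 58.2 to 109 k scaled reads in NASH and 16.5 to 50.1 k in control. Without Pck1, which the proximal tubule makes, they overlapped, at 1.38 to 3.85 k in NASH and 1.70 to 2.69 k in control. The sums of the other 4 lists overlapped: loop and distal tubule markers reached 42.2 to 109 k scaled reads in NASH and 47.4 to 99.3 k in control, and proximal tubule markers 327 to 396 k in NASH and 299 to 393 k in control, with none of them at 0. Collecting duct markers reached 11.3 to 19.7 k in NASH and 11.2 to 14.8 k in control, and hepatocyte markers 5.10 to 57.3 k in NASH and 3.53 to 40.1 k in control. Their part in the enzyme differences was not tested.

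The enzymes also differed by replicate number, by a mean of up to 1.12 on the log2 scale. Replicate 1 stood apart from replicates 2 and 3 in all 4 groups with no overlap for 9 enzymes, against 19.2% of all genes. Of these, 6 were higher in replicate 1 (Hk1, Pfkm, Pgk1, Pkm, Ldhb and Cs) and 3 lower (Tpi1, Ldha and Me1), against 15.0% and 4.21% of all genes. Pkm, pyruvate kinase of muscle and most other tissues, ranged over 12.08 to 12.80 in the 4 libraries of replicate 1 and over 10.81 to 11.80 elsewhere, a mean difference of 1.12 ± 0.61 (SD over 4 groups). Hk1 differed by 0.95 ± 0.40, Pfkm by 0.48 ± 0.05 and Cs by 0.37 ± 0.19. Me1 spanned 12.38 to 12.60 in replicate 1 against 13.06 to 13.75 elsewhere (-0.96 ± 0.27), and Ldha 12.93 to 13.02 and 13.44 to 13.74 (-0.60 ± 0.05). Idh1 differed by 0.62 ± 0.10 and overlapped narrowly, since its lowest replicate 1 library reached 13.65 and its highest other library 13.66.

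Ldha and Ldhb moved in opposite directions between replicate numbers, so their balance separated the libraries sharply. Ldha minus Ldhb lay between -1.79 and -1.75 on the log2 scale in replicate 1 but between -1.13 and -0.69 elsewhere. Between the groups it did not part: the mean was -1.22 ± 0.51 in NASH and -1.34 ± 0.36 in control at 12 weeks, and -1.10 ± 0.56 in NASH and -1.07 ± 0.60 in control at 24 weeks (SD, n = 3 each). Suclg2 minus Sucla2 also stood apart, but barely, between 0.98 and 1.28 in replicate 1 against 1.30 to 1.95 elsewhere. Idh1 minus Idh2 lay between 0.56 and 1.37 in replicate 1 and between -0.08 and 0.53 elsewhere. Pfkl minus Pfkm and Pfkl minus Pfkp overlapped between replicate numbers.

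Several other measures followed the replicate number. Xist, the RNA that silences an X chromosome in female cells, reached 10.60 to 11.54 in replicate 1 against 2.97 to 4.86 elsewhere, while the Y-linked Ddx3y reached 2.48 to 4.25 against 8.95 to 9.62. In every group replicate 1 thus had the female pattern of these genes and replicates 2 and 3 the male pattern. The replicate block therefore also removes what goes with this split, and the fits within replicates 2 and 3 hold only libraries with the male pattern. Loop and distal tubule markers summed to 99.3 to 170 k scaled reads in replicate 1 against 40.2 to 86.9 k elsewhere, and collecting duct markers to 14.8 to 19.7 k against 9.47 to 13.5 k. Podocyte markers summed to 12.1 to 15.8 k against 4.98 to 7.70 k, and proximal tubule markers to 286 to 327 k against 338 to 396 k. The 5 androgen-responsive kidney genes of the list used here summed to 31.5 to 145 k in replicate 1 against 347 to 677 k elsewhere, 4 of them lower with no overlap. Hepatocyte markers summed to 3.53 to 6.06 k against 28.6 to 57.3 k, but this sum does not describe the list as a whole. Of its 8 genes, 1 was lower and 1 higher in replicate 1 with no overlap, and the median log2 difference was 0.82, on the higher side. Which of these the enzyme differences follow was not tested, and no p is given because the meaning of a replicate number is not given in the labels.

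**Figure D4:**
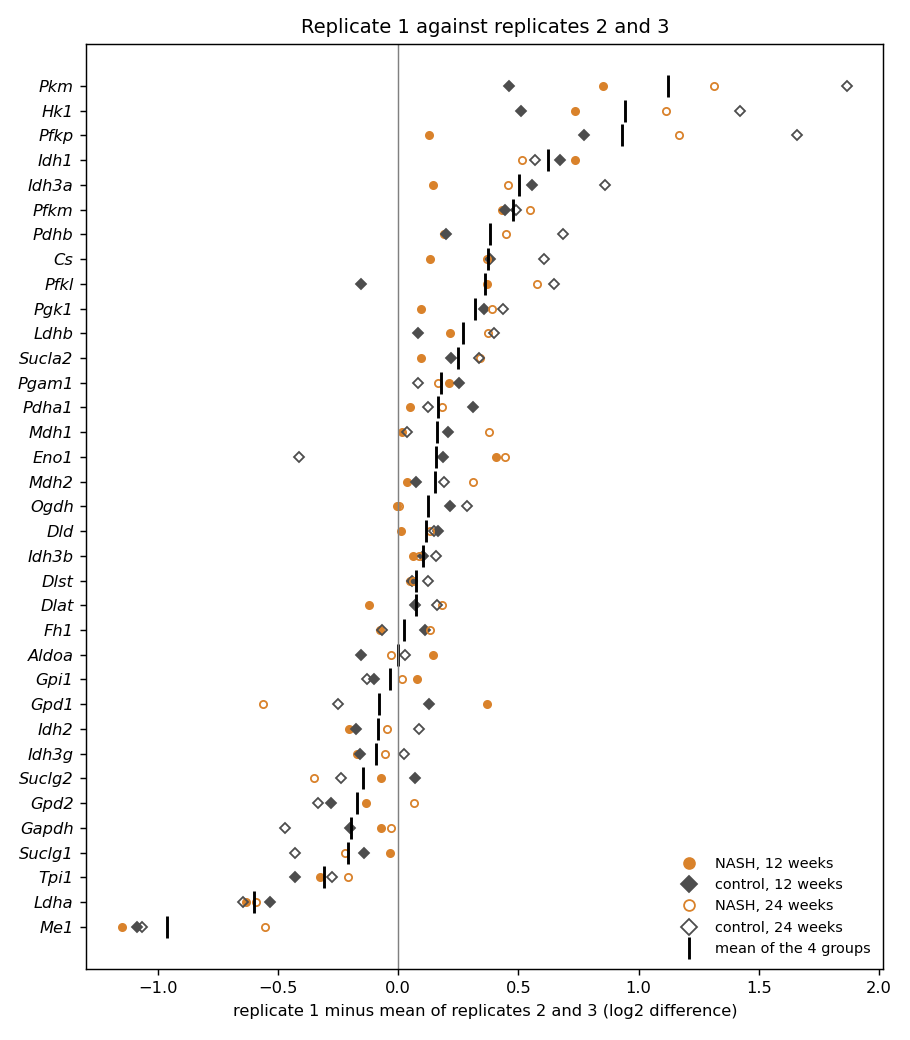
Replicate 1 minus the mean of replicates 2 and 3 for each enzyme, with 1 point for each of the 4 groups (NASH circles, control diamonds, filled at 12 and open at 24 weeks) and a black bar for their mean, on the log2 scale. Pkm (1.12) and Hk1 (0.95) lie at the top and Ldha (-0.60) and Me1 (-0.96) at the bottom.

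The promoters of Ldha and Me1, the enzymes farthest below 0 by replicate number, are shown beside those of Gpd2 and Idh1, from the same RefSeq table. Capitals mark ACGTG and CACGT, including the palindrome CACGTG that holds both, and Ldha has 5 such matches and Me1 has 1, overlaps included. Tpi1, also lower in replicate 1, has 0. Of the enzymes higher in replicate 1 without overlap, Hk1 and Pgk1 have 2 matches each, Pfkm has 1, and Pkm, Ldhb and Cs have 0. A link between these letters and the replicate number was not tested. The Ldha window is chr7:46845554-46845853 on the forward strand and the Me1 window chr9:86687228-86687527 on the reverse strand. Ldha (gene ID 16828) runs from 46845804 to 46855627 and Me1 (17436) from 86581363 to 86687277.
Ldha: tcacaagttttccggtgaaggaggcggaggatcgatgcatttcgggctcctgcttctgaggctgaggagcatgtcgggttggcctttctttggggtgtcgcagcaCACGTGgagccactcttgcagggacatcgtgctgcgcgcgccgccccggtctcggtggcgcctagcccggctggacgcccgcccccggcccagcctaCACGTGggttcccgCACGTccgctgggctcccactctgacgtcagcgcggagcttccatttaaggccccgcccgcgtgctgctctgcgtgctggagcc
Me1: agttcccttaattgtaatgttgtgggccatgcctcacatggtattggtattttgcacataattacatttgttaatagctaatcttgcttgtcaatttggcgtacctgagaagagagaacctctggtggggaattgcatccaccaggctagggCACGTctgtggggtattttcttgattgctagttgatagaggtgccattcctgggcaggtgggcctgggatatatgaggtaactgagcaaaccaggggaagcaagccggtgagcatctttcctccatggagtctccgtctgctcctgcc

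The table held 33 of the 35 enzymes, and 29 of these windows were set at the gene start of the files; the others lay 11 bases from it for Pfkl, 138 for Tpi1, 208 for Pkm and 25964 for Suclg2, and none of these 4 held the letters marked above. ACGTG or CACGT occurred in 12 of these 33 windows (36.4%), in 7 of 14 of glycolysis, 1 of 4 of pyruvate dehydrogenase, 3 of 13 of the cycle and 1 of 2 side enzymes, and in 25.8% of the windows of 9259 measured genes. Its palindrome CACGTG occurred in 1 of 33 and in 10.3% of all, and GGGCGG or CCGCCC, the letters of a GC box, in 22 of 33 and in 64.8% of all. A match is a description of letters and is not evidence of binding.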

How the data were processed

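The labels' protocols name total RNA from kidney cortices with an RNA integrity above 7.5. BWA, limma and the mouse build mm10 are named in the submitters' processing notes; their roles, versions and the normalization are not given in the sources used here. The authors deposited normalized log2 values (so named in the file headers), which were used as they are. Between 86.3% and 91.5% of the values below 60 steps were whole multiples of 1 step per library, within 0.01 steps, so depth was estimated from the steps (0.9998 to 1.96 scaled reads a read). Levels are 2 to the power of the value ("scaled reads"), divided by the transcript length of the files; starts were raised by 1.

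Each gene was fitted with limma 3.58.1 (R 4.3.3) by 4 group means over 12 libraries; the moderated tests were 2-sided and allowed for a trend of variance on mean, Benjamini-Hochberg adjustment ran over 11614 genes, and an adjusted p under 0.05 counts as called. The code was tested on simulated data. Replicate numbers 1 to 3 occur in every group, and all 18 same-numbered pairs of deviations from group means correlated above 0.1 (0.187 to 0.742, median 0.519), so a replicate block was added; replicates 2 with 3 also did (12 of 12, 0.187 to 0.637, median 0.365), and the meaning of a number is not given in the labels. The alternatives were median-of-ratios scaling, quantile normalization, no trend, a filter at 100 scaled reads, 16 added on the linear scale, the compared groups only, replicates 2 and 3 only, GC content and length trends removed, and each library left out. Values per library are given for members called in any contrast, with or without the block, and for the 3 members of glycolysis, pyruvate dehydrogenase and the cycle with the smallest p at each time; Slc16a1 and Ndrg1 were always given. Other genes are named where a count of 5 or fewer required it, after their values were seen. Members, 23 gene lists and tests were chosen with earlier results of these data known. Tables were made with pandas 2.3.3 and numpy 2.4.6 under Python 3.11.15, and figures with matplotlib 3.10.9.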

Additional observations from a re-analysis of the deposited data

Results flagged for a closer look

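Gpd2 was singled out because its NASH effect ran in opposite directions at the 2 times, with no overlap between groups at either. The effect at 24 weeks minus that at 12 weeks was -0.98 on the log2 scale (SE 0.20, n = 3 libraries a group, limma). This interaction did not pass over all genes, with an adjusted p of 0.698 without the replicate block and 0.0739 with it.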

How the results depend on the processing

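Without a block, the count of enzymes called was 0 in each of the 6 comparisons and stayed at 0 under both scalings, no trend, the filter, the added constant, the compared groups only (which gives no value for the interaction or the average) and each library left out. Replicates 2 and 3 only gave 1 at 12 weeks, 1 for the interaction, 2 for time in NASH, 3 for time in control and 1 for the average. With the replicate block the counts were 2 at 12 weeks and 1 for time in control, and 0 in the other 4 comparisons. The block with median-of-ratios scaling gave 2 at 12 weeks, 1 for time in control and 3 for the average. With quantile normalization it gave 2 at 12 weeks, 1 for the interaction, 2 for time in control and 1 for the average. With GC and length trends removed it gave 1 at 12 weeks and 1 for time in control. The shares of all genes called in these fits are not given here, so these counts cannot be set against them. The block alone called 12.9% of all genes at 12 weeks and 10.4% for the average. Leaving out 1 library gave 0 to 0 without the block and, with it, 0 to 3 at 12 weeks, 0 to 0 at 24 weeks, 0 to 1 for the interaction, time in NASH and the average, and 0 to 4 for time in control. Over all genes the block moved the calls to 1494 from 6 at 12 weeks (253 to 1533 with a library left out) and to 1207 from 0 for the average. Quantile normalization moved the enzymes that part replicate 1 from the others to 15 from 9. The share of all genes under that normalization is not given here, so the larger count cannot be read as particular to the enzymes. The cause of these shifts was not tested. With 3 libraries a group and depths of 7.18 to 14.1 M reads, a difference that did not pass is not shown to be absent.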
